A study of Caenorhabditis elegans with 2 samples.

Results

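The 9 genes described here belong to the heat shock and Hsp70 chaperone system and were examined for binding of the tagged MADF-domain protein MADF-5 in Caenorhabditis elegans larvae. They were F44E5.4 (WBGene00009691), F44E5.5 (WBGene00009692), hsp-70 (WBGene00002026), hsp-1 (WBGene00002005), hsp-110 (WBGene00016250), dnj-13 (WBGene00001031), hsp-90 (WBGene00000915), hsp-16.2 (WBGene00002016) and hsp-16.41 (WBGene00002018). These 9 genes, of 31563 in the annotation without piRNA genes, were chosen by their function as chaperone genes and by the summits, signals and scores of MADF-5 peaks near their starts. These values are given as a description, with no test. F44E5.4 and F44E5.5 are divergently transcribed from 1 intergenic stretch, as are hsp-16.2 and hsp-16.41, so a peak shared by a pair was counted once and the 9 genes make 7 promoters.

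The study was a chromatin immunoprecipitation sequencing (ChIP-seq) experiment on whole L4 larvae of strain OP436, in 2 biological replicates that form a single group, with no second condition. The strain carries the transgene wgIs436, in which the madf-5 gene (C01G12.1) in a fosmid is tagged with TY1, EGFP and 3xFLAG, together with an unc-119(+) rescue of unc-119(tm4063). Larvae were hatched from bleached embryos, starved at L1 and grown to 50 hours. Chromatin was sheared by sonication and precipitated with an antibody to GFP. What is precipitated is therefore the tagged protein made from an added gene copy, and the labels name no change to the endogenous madf-5 gene. Because whole larvae were used, the cells in which a promoter is bound cannot be told apart, and the peak lists hold no expression values against which the stage could be checked. No heat shock is named in the labels.

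Peaks are given in 4 kinds of list. A conservative list of 813 peaks and a second whole-series list of 844 peaks were made from both replicates together. Replicate 1 alone gave a thresholded list of 411 peaks and replicate 2 alone one of 254. Behind each thresholded list stands a ranked list with weak peaks kept in, of 116935 peaks for the conservative list, 64186 for replicate 1 and 70113 for replicate 2. Each peak has a summit, a signal value and a score. The score, which cannot exceed 1000, comes from the irreproducible discovery rate (IDR) method, which asks whether a peak ranks alike in repeated peak calls, and its lowest value in the conservative list was 830. The signal is the authors' own value for a peak, on a scale that the labels do not state, so it was compared only within a list. The number of reads behind any peak is unknown. The median signal was 75.6 in the conservative list and 20.4 in its ranked list. The ranked list does not differ by weak peaks alone. It also holds 170 peaks with a score of 830 or more that the conservative list leaves out. The highest signal was 563.9 in the conservative list and 3573.1 in its ranked list, so a rank holds only within its list.

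Chaperones bind unfolded or newly made proteins and keep them from aggregating. Hsp70 proteins take up and release their clients in a cycle that J-domain co-chaperones start and nucleotide exchange factors complete. Hsp90 acts later on selected clients, and small heat shock proteins hold unfolded proteins without using ATP. In C. elegans, as in other animals, heat stress switches many of these genes on through the heat shock factor HSF-1, which binds heat shock elements built from repeats of the unit GAA and its reverse complement TTC. MADF domains are protein modules that occur in DNA-binding proteins.

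The DNA under the summits differs among the promoters with a peak in the conservative list, and the stretches are printed in the order of their signal. All are plus-strand sequence of WBcel235, the assembly that matches ce11, read 5′ to 3′. Capitals mark heat shock elements: runs of 3 or more alternating GAA and TTC units spaced by 2 bases for the F44E5.4/F44E5.5 and hsp-16.2/hsp-16.41 promoters, and a match to the 2-unit element GAANNTTC at hsp-90. The first stretch is the middle 300 of the 350 bases that separate the starts of F44E5.4 and F44E5.5, chrII:11759337-11759636, with the summit at 11759448. The others reach 50 bases to either side of a summit, at chrII:11545378-11545478 for dnj-13, chrV:14685698-14685798 for hsp-90 and chrV:1805153-1805253 for hsp-16.2/hsp-16.41.
F44E5.4/F44E5.5: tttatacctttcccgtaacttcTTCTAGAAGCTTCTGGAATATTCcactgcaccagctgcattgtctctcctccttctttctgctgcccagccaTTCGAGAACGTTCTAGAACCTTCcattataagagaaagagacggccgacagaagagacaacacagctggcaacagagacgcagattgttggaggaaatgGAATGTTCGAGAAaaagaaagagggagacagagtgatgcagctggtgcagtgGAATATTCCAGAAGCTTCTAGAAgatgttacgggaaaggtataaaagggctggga
dnj-13: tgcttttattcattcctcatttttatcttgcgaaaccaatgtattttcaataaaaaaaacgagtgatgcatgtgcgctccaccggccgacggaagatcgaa
hsp-90: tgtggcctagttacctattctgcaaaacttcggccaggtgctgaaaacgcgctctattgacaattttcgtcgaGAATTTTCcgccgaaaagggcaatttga
hsp-16.2/hsp-16.41: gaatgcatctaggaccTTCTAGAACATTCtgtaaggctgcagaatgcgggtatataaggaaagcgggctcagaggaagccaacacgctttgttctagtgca

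Between F44E5.4 and F44E5.5 lie 4 runs of 3-unit or longer elements. The run under the summit holds 5 units in 23 bases and its centre lies 6 bp from the summit. The outer runs at each end, seen in the first stretch, are reverse complements of each other, 78 and 145 bp from the summit. The stretch at dnj-13 has no capitals because it holds neither the 2-unit nor the 3-unit element. The 13-base element at hsp-16.2/hsp-16.41 has its centre 28 bp from that summit and spans the start of hsp-16.41.

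The strongest of the 7 promoters was the one shared by F44E5.4 and F44E5.5, a pair of inducible cytosolic Hsp70 genes. Its peak covered chrII:11759394-11759462 in intergenic DNA, with the summit 137 bp upstream of the F44E5.4 start (minus strand, 11759311) and 214 bp upstream of the F44E5.5 start (plus strand, 11759662). Its signal over both replicates was 196.4 with a score of 1000, 9th of 813 peaks in the conservative list. In the ranked list behind it, which keeps strong peaks that the conservative list leaves out, it was 67th of 116935. Among the 259 listed peaks within 500 bp of a protein-coding start it ranked 4th. In replicate 1 the peak had a signal of 125.1 and was 5th of that replicate's 411 thresholded peaks. In replicate 2 it had a signal of 70.4 and was 40th of 254. Both replicates gave it the full score of 1000, and it was the only one of the 7 promoters in both replicates' own thresholded lists. The summits of the replicates lay 33 bp apart. The joint peak was 69 bp wide where 800 of the 813 listed peaks were 224 bp wide, and 2 were narrower than it.

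The nearness of a twin gene bears on how reads can be placed there. The coding sequences of F44E5.4 and F44E5.5 are identical over all 1935 bases, and each encodes a protein of 645 residues. In the 250 bp on either side of the summit, 33.4% of the 50-base words occur more than once in the genome. Of the 350 bases between the starts, 252 lie in no repeated 50-base word, in an unbroken block at chrII:11759356-11759607. All 69 bases of the peak are in that block. How the authors handled reads that match several places is not given in the sources used here.

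The J-domain co-chaperone gene dnj-13 came next. Its peak, chrII:11545316-11545539, had its summit 273 bp upstream of the dnj-13 start, in an intron of dhgd-1. The joint signal was 114.2 with a score of 1000, 38th of the 259 listed peaks near a protein-coding start. Replicate 1 gave a signal of 74.0 and a score of 1000, 64th of its 411 thresholded peaks. Replicate 2 gave 39.3 with a score of 692, below its threshold, at position 577 of its 70113 ranked peaks. The replicate summits lay 14 bp apart. Starts of non-coding RNA genes lie closer to this summit than the start of dnj-13 does, F54D5.22 at 36 bp and F54D5.18 at 185 bp, so the peak cannot be assigned to dnj-13 by distance alone.

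At hsp-90, the gene of cytosolic Hsp90, the annotation has 2 transcript starts, at chrV:14684918 and 14686160. The peak covered chrV:14685636-14685859 in an intron of the long transcript, with its summit 412 bp upstream of the inner start. The start of C47E8.4, a minus-strand gene that begins inside the long hsp-90 transcript, is nearer, at 263 bp. The joint signal was 91.4 with a score of 1000, 223rd of 813. Replicate 1 gave a signal of 56.6 and a score of 1000, 147th of its 411 thresholded peaks, and that list held a second peak 395 bp downstream of the inner start, in coding sequence, with a signal of 25.9 and a score of 894. Replicate 2 gave 32.6 with a score of 234, in the ranked list only. The replicate summits were 13 bp apart.

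The divergent pair hsp-16.2/hsp-16.41 encodes small heat shock proteins and is widely used to report heat stress in worms. The genes are separated by 220 bases between their starts (chrV:1804957, minus strand, and 1805178, plus strand), and hsp-16.2 has a second, inner start at 1804870. Their peak, chrV:1805091-1805314, had its summit in the 5′ UTR of hsp-16.41, 25 bp downstream of that start and 246 bp upstream of the nearer hsp-16.2 start. The joint signal was 70.1, below the list's median of 75.6, with a score of 984, 486th of 813. Neither replicate held the peak in its own thresholded list. Replicate 1 gave it a signal of 30.1 and a score of 35, position 1609 of 64186. Replicate 2 gave it a signal of 37.2 and a score of 537, position 703 of 70113. The replicate summits were 2 bp apart, the closest agreement in position among the promoters with a summit in both replicates. The second whole-series list also held a peak 836 bp downstream of the inner hsp-16.2 start, with a signal of 52.7.

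**Figure D1:**
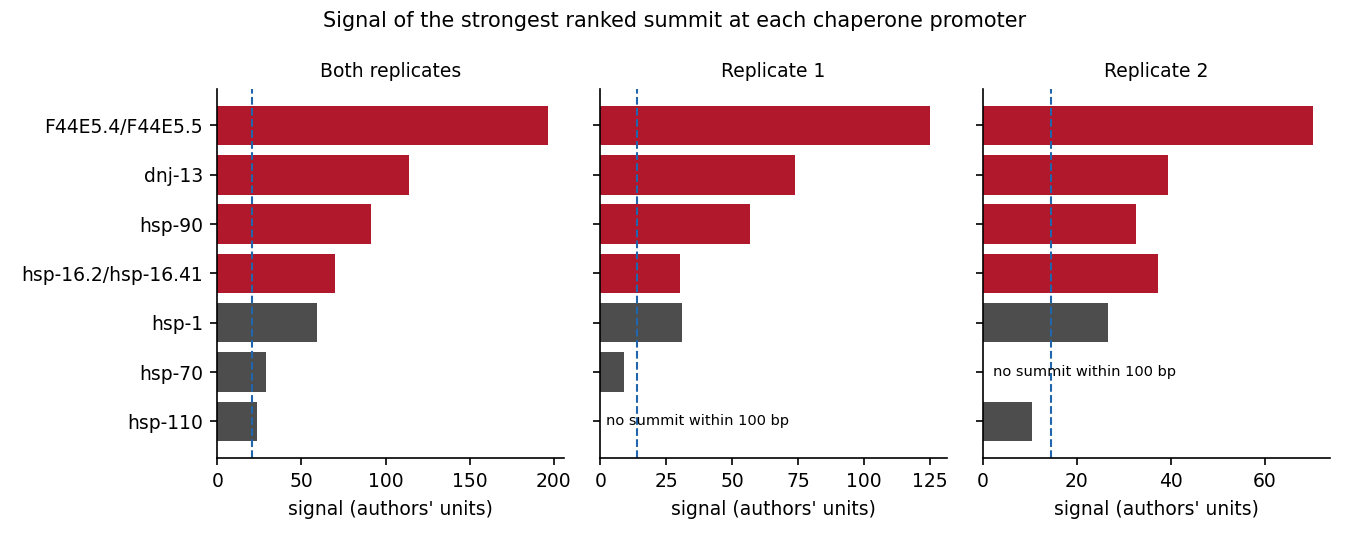
Signal (authors' units, separate scale in each panel) of the strongest summit within 500 bp of a start at each of the 7 chaperone promoters in the ranked list over both replicates (left), and of the summit within 100 bp of it in each replicate's ranked list (middle and right). Red bars are the 4 promoters in the conservative list, grey bars the other 3, and the dashed line is the median of all peaks of that list; the F44E5.4/F44E5.5 promoter is highest in every panel, at 196.4, 125.1 and 70.4.

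The position of each summit in the ranked lists puts the replicates on a common footing. F44E5.4/F44E5.5 lay in the top 0.0748% of replicate 1 and the top 0.177% of replicate 2, and dnj-13 in the top 0.226% and 0.823%. The summit at hsp-90 was in the top 0.377% of replicate 1 and 1.76% of replicate 2. These 3 promoters ranked higher in replicate 1, while hsp-16.2/hsp-16.41 ranked higher in replicate 2. At hsp-1, the constitutive cytosolic Hsp70 gene, the order depended on which of its 2 main summits was taken. The summit downstream of the start was in the top 2.15% of replicate 1 and 5.17% of replicate 2, and the upstream one in the top 4.84% of replicate 1 and 2.10% of replicate 2. With 1 value per replicate, and no second group, no error on these differences can be given.

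**Figure D2:**
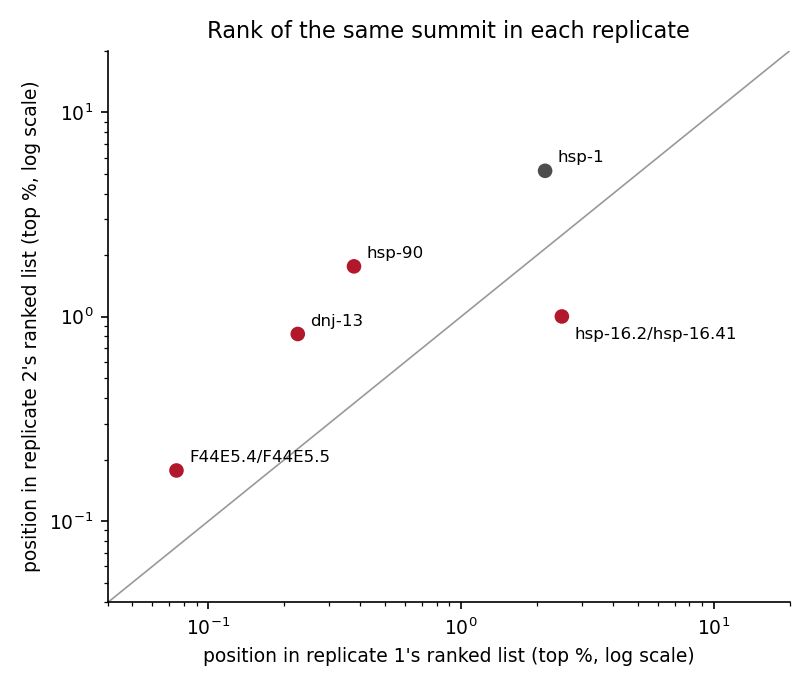
Position of the same summit in the ranked list of replicate 1 (horizontal) and replicate 2 (vertical), as the top percent of the list on log axes, for the 5 promoters with a summit in both; red points are in the conservative list, the grey point is the downstream summit of hsp-1, and the line marks equal positions. The hsp-16.2/hsp-16.41 point lies below the line, at 2.51% in replicate 1 and 1.00% in replicate 2, and the other 4 lie above it.

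hsp-1 lay just outside the conservative list. There, 2 ranked summits had scores just under the lowest listed score of 830. One was 402 bp upstream of the start (signal 58.1, score 819) and the other 117 bp downstream, in coding sequence (signal 59.0, score 805). In the ranked list behind the second whole-series list, the summit 117 bp downstream had the same signal but a score of only 395. On the other side of the conservative list's threshold, the lowest-scoring promoter within the list was hsp-16.2/hsp-16.41 at 984. The second whole-series list did hold the upstream hsp-1 peak, with the same signal and a score of 870, and a further peak 916 bp downstream of the start with a signal of 60.3, which lies 171 bp from the start of the snoRNA gene F26D10.24. Replicate 1 had that downstream peak in its own list, at 44.0. At the downstream summit of the joint list, replicate 1 gave a signal of 31.1, at position 1381 of its ranked list, and replicate 2 one of 26.5, at position 3626. At the upstream site the values were 26.1 in replicate 1 and 31.4 in replicate 2, with summits 413 and 351 bp from the start.

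The other Hsp70-class genes among the 9, hsp-70 and hsp-110, had low joint signals. hsp-70, an inducible Hsp70 gene that lies in an intron of uggt-2, had a joint signal of 29.0 and a score of 118 at 151 bp downstream of its start, position 26020 of 116935. Replicate 1 gave 8.99 there, and replicate 2 had no ranked summit within 500 bp of the hsp-70 start. hsp-110, whose product is a nucleotide exchange factor of the Hsp70 superfamily, had a joint signal of 23.7 at 122 bp downstream, position 44334. Replicate 2 gave 10.4 at nearly that position, and replicate 1 had none there. Replicate 1 instead had a ranked summit 233 bp upstream of hsp-110, with a signal of 31.1 and a score of 564, position 1385 of 64186 and ahead of the hsp-16.2/hsp-16.41 summit in that list. The ranked list behind the second whole-series list had a summit 8 bp from it, with a signal of 22.2 and a score of 45. Replicate 2 and the conservative ranked list had none at that site.

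In counts, the conservative list held a summit within 500 bp of a start for 4 of the 7 promoters, or 6 of the 9 genes, against 287 of 19985 protein-coding genes, which is 1.44%. The second whole-series list held one at 5 promoters and 7 genes, against 1.46% of protein-coding genes. Replicate 1's own list held 3 promoters and 4 genes, against 0.791%, and replicate 2's own list 1 promoter and 2 genes, against 0.305%. The genes were picked with these peaks in view, so nothing is read from the gap between these shares. In the ranked list behind the conservative list all 9 genes had a summit, but so did 78.7% of protein-coding genes, so a ranked summit alone sets no gene apart.

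Ranked by their highest signal among the 15722 protein-coding genes with such a summit, where the median signal was 25.5, F44E5.4 and F44E5.5 shared 5th place. dnj-13 was 47th, hsp-90 76th, the hsp-16.2/hsp-16.41 pair 172nd and hsp-1 340th. hsp-70 was 5880th and hsp-110 8975th, the last with a signal under that median. The peaks closest in signal in the conservative list were of mixed kinds. Next above F44E5.4/F44E5.5 was a peak with no gene start within 500 bp (198.3) and next below it one at T06C12.16 (186.6). Next above dnj-13 stood a peak with no start within 500 bp (114.5), and next below it one at WBGene00014573 and Y43D4A.5 (114.1). hsp-90 stood between a peak at T02G6.12 and WBGene00014498 (91.7) and one at Y24D9A.9, rpl-7A and set-21 (91.3). The hsp-16.2/hsp-16.41 peak stood between one at C38C6.9 and WBGene00014283 and one at lelo-2 (69.9).

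**Figure D3:**
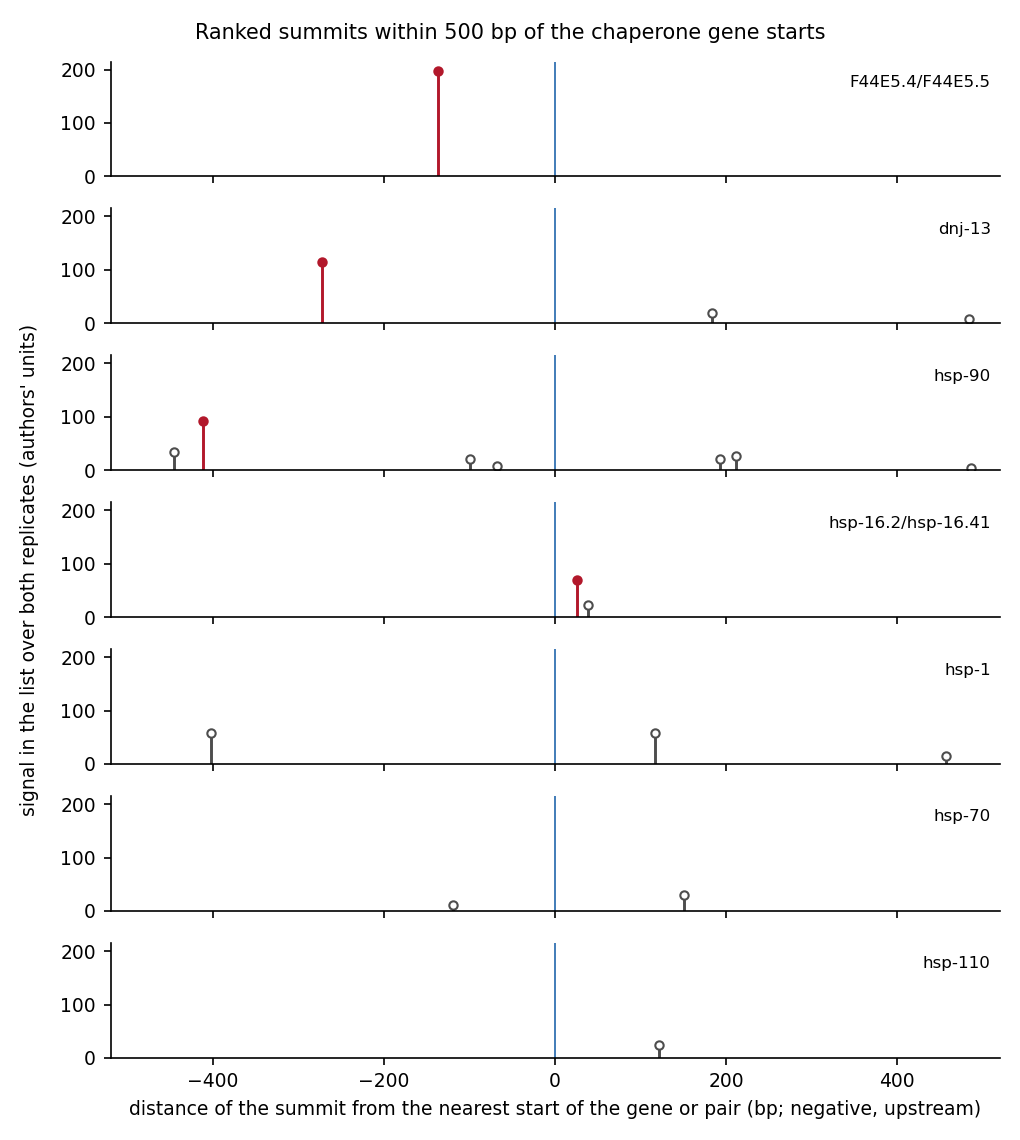
Every summit of the conservative ranked list within 500 bp of a start at the 7 chaperone promoters, by its distance from the nearest start of the gene or pair (bp, negative upstream) and its signal (authors' units). Filled red points are in the conservative list and open grey points are not; at hsp-90 distances run from whichever of its 2 starts is nearer. The listed summits lie at -137 bp (F44E5.4/F44E5.5), -273 bp (dnj-13), -412 bp (hsp-90) and 25 bp (hsp-16.2/hsp-16.41).

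Heat shock elements were then placed against the summits. A 3-unit element, counted on both strands as 3 alternating GAA and TTC units spaced by 2 bases, lay between 250 bp upstream and 50 bp downstream of a start in 8 of the 9 genes, against 506 of 19985 protein-coding genes (2.53%). The exception was dnj-13, whose element lies 403 bp upstream. An element shared by a divergent pair was counted for both genes, and hsp-90 counted through its outer start alone. The 9 were chosen as chaperone genes, so nothing is read from the gap between these shares. Either 2-unit element, GAANNTTC or TTCNNGAA, both of which occur inside every 3-unit element, lay in that window in all 9 genes, against 38.4% of protein-coding genes. The search itself fixes the GAA and TTC units and their spacing, so likeness among the elements it finds is not a result. In the runs printed below, the units and the 2-base spacers between them are all in capitals. The element runs closest to the starts or summits of the promoters that follow are shown as each gene's own strand reads. They lie at chrII:11759431-11759453 for F44E5.5, chrV:1805169-1805181 for hsp-16.41, chrII:11545292-11545304 for dnj-13, chrV:14684903-14684915 for hsp-90, chrIV:17278815-17278827 for hsp-1 and chrIII:8447012-8447024 for hsp-110.
F44E5.5: TTCGAGAACGTTCTAGAACCTTC
hsp-16.41: TTCTAGAACATTC
dnj-13: TTCCAGAATATTC
hsp-90: TTCTCGAAAGTTC
hsp-1: GAATTTTCTAGAA
hsp-110: GAAATTTCTAGAA

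The summits stood close to these elements at only some promoters. Within 50 bp of the strongest summit, a 3-unit element was present at F44E5.4/F44E5.5, with 3 overlapping matches, and at hsp-16.2/hsp-16.41, with 1. A 2-unit element alone was present at hsp-90. None of these elements was found at the summits of dnj-13, hsp-1, hsp-70 or hsp-110. At dnj-13 the nearest 3-unit element was 130 bp from the summit, at hsp-1 255 bp, at hsp-70 218 bp and at hsp-110 231 bp. At hsp-90 both 3-unit elements lie just before the outer start, 9 and 79 bp upstream of it and 839 and 909 bp from the listed summit. The ranked summit beside them, 68 bp upstream of the outer start, had a signal of 7.61 and the score 45, the lowest that list holds. The upstream summit of replicate 1 at hsp-110 falls within the outer element, 231 bp upstream.

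**Figure D4:**
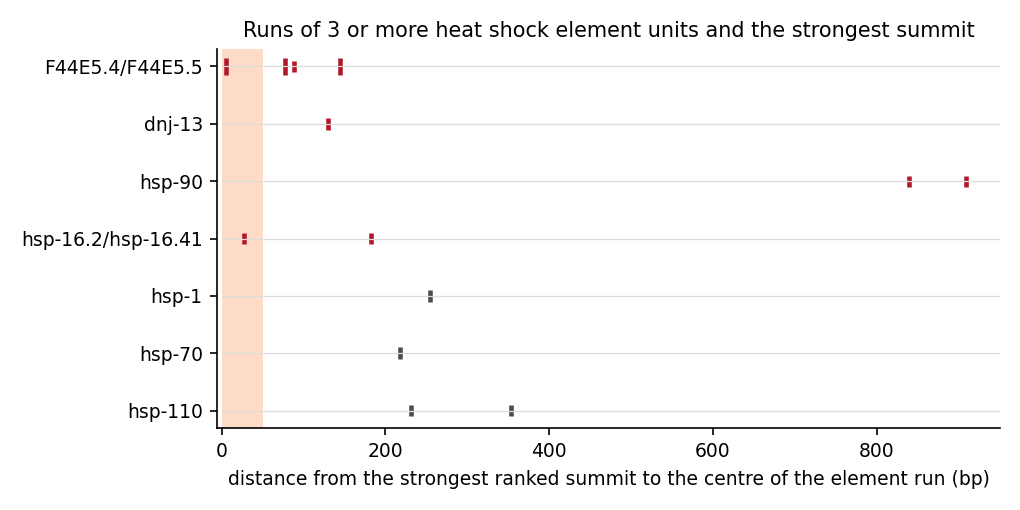
Distance (bp) from the strongest ranked summit to the centre of each run of 3 or more heat shock element units within 500 bp upstream or 50 bp downstream of a start, at the 7 promoters; larger ticks are runs longer than 13 bases, red is in the conservative list and grey is not, and the shaded band is the 50 bp on either side of the summit. Runs fall within the band at F44E5.4/F44E5.5 (6 bp) and hsp-16.2/hsp-16.41 (28 bp), while those at hsp-90 are 839 and 909 bp away.

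Set against other peaks, 18 of the 813 conservative summits (2.21%) held a 3-unit element within 50 bp, and 756 of the 115952 ranked summits under the lowest listed score did (0.652%). Of the 18, 13 held 8 or more overlapping matches, and 11 of those 13 had no gene start within 500 bp. Near protein-coding starts, 5 of 259 conservative summits held the element (1.93%), with those at F44E5.4/F44E5.5 and hsp-16.2/hsp-16.41 among the 5. Either 2-unit element was at 9.35% of the 813 and 12.35% of the 115952. The windows differ in base composition, with a mean GC content of 47.8% at conservative summits and 39.4% at the ranked summits below the threshold, and its part in these shares was not tested. Among the 7 chaperone summits GC content ran from 27.7% at hsp-70 to 49.5% at hsp-1. The B box of tRNA-type promoters, GTTCGANNC, was in 17.7% of the conservative summits and 12.7% of those within 500 bp of a protein-coding start. Among ranked summits below the threshold the share was 0.981%. It was at none of the 7 chaperone summits, of which 4 are conservative. These are too few for its absence to be read as a trait of the chaperone promoters. Across the genome most genes with a heat shock element had no peak. Of the 506 protein-coding genes with a 3-unit element in the window, 17 had a conservative summit (3.36%), against 270 of the 19479 without one (1.39%). With the 9 chaperone genes left out, the counts were 12 of 498 (2.41%) and 269 of 19478 (1.38%).

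Close paralogs of these genes were followed in the same lists. hsp-16.1 and hsp-16.11 encode proteins 93.1% identical to HSP-16.2, and hsp-16.48 and hsp-16.49 proteins 93.7% identical to HSP-16.41. They are also arranged as divergent pairs, hsp-16.1/hsp-16.48 and hsp-16.11/hsp-16.49, and each pair has 2 matches to the 3-unit element between its starts. Neither pair had a summit within 500 bp of a start in any of the 8 lists, thresholded or ranked. Every 50-base word between the starts of these pairs occurs more than once in the genome, 299 of 299 and 261 of 261, against 0 of 171 for hsp-16.2/hsp-16.41. Absence of a peak there cannot be told apart from absence of uniquely placed reads. hsp-70 is 87.6% identical in protein sequence to F44E5.4 and F44E5.5, and none of the 50-base words around its ranked summit is repeated.

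Beyond the 9 genes, lists of chaperone genes by role were followed. Of 92 genes found in the annotation, the 9 are part and 83 are not. Of those 83, 3 (3.61%) had a conservative summit within 500 bp of a start, against 1.44% of all protein-coding genes. They were the J-domain gene dnj-28 (signal 135.2, summit 133 bp upstream), the nucleotide exchange factor gene bag-1 (118.2, 223 bp upstream) and the small heat shock protein gene F08H9.3 (60.5, 38 bp downstream). ahsa-1, the activator of the Hsp90 ATPase, was in the second whole-series list (71.3, 193 bp upstream). Replicate 1's own list held 3 of the 83 (dnj-28, bag-1 and ahsa-1), against 0.791% of protein-coding genes. Replicate 2's own list held 0, against 0.305%, a share at which a count of 0 among 83 genes says little. bag-1 and ahsa-1 have a 3-unit element in their promoter windows, and dnj-28 and F08H9.3 do not.

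By role, with the 9 genes counted in, the conservative list held 2 of 12 Hsp70 family genes, both at the F44E5.4/F44E5.5 promoter. It held 3 of 16 small heat shock protein genes, with hsp-16.2 and hsp-16.41 sharing 1 peak, and 2 of 30 J-domain genes. Hsp90 with its co-chaperones had 1 of 11, and the nucleotide exchange factors 1 of 4. The chaperonin and prefoldin genes, whose products take part in the folding of new proteins, had 0 of 16, and heat shock factor with its regulators 0 of 4. With the 9 genes left out, the Hsp70 family had 0 of 7 and small heat shock proteins 1 of 14. J-domain genes then had 1 of 29, Hsp90 with its co-chaperones 0 of 10 and exchange factors 1 of 3. The 14 small heat shock protein genes, and the 83 above, include hsp-16.1, hsp-16.11, hsp-16.48 and hsp-16.49. At these paralogs, absence of a peak cannot be told apart from absence of uniquely placed reads. The share of all protein-coding genes was 1.44%, so in groups this small a count of 0 sets no role apart. The median of the highest ranked signal over the genes with a ranked summit was 29.6 for the 69 chaperone genes outside the 9, against 25.5 for all 15722 protein-coding genes.

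**Figure D5:**
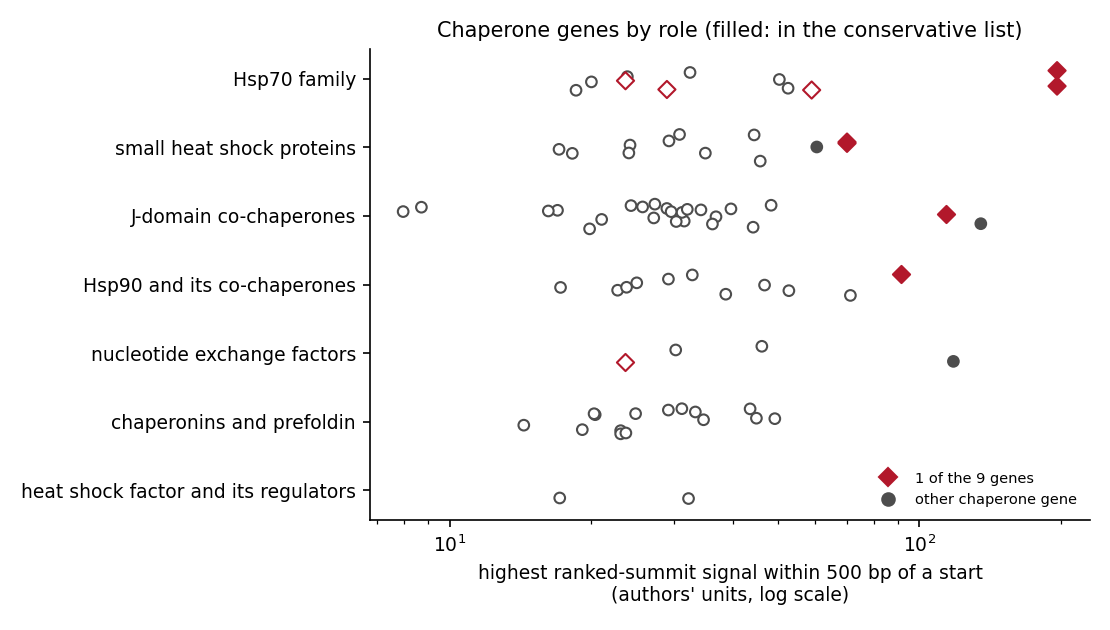
Highest signal of a ranked summit within 500 bp of a start (authors' units, log axis) for each chaperone gene with such a summit, in 7 roles; red diamonds are the 9 genes, grey circles the other chaperone genes, and filled symbols are in the conservative list (hsp-110 stands under both of its roles). The F44E5.4/F44E5.5 diamonds are farthest right, at 196.4.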

How the data were processed

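Peak lists of 1 group of 2 replicates were used. Per the file list deposited with the samples, coordinates are on ce11, thresholded lists derive from alignments, a control and 1 further file, and whole-series lists from both replicates' alignments. Which aligner and which peak caller were used is not given in these sources, and the control library was not analysed here. The deposited score is the authors' IDR score and the deposited signal is the authors' value per peak. Read depth is unknown.

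Summits were placed against Ensembl release 115 transcript starts (WBcel235, piRNA genes left out), within 500 bp. Elements and repeated 50-base words were searched in the RefSeq genome of the same assembly with Python 3.11.15, pandas 2.3.3 and Biopython 1.88, and the placement was checked on simulated peaks. Genes named are the 9, listed chaperone genes with a peak, neighbours within 500 bp, the peaks next in signal and paralogs of at least 80% protein identity. Members and lists were chosen with earlier results of these data known. No test was run. Alternatives were other lists, windows, thresholds and starts.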

Additional observations from a re-analysis of the deposited data

How the results depend on the processing

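Of 48 alternative values, 37 stayed within 1.5 times the main value, or within its 95% Wilson interval for the share of all genes. The other 11 did not. Among the 37 are 11 that could not move: each of the 4 listed promoters has 1 listed summit, and both whole-series lists give it the same signal. They say nothing of stability, and signals without a replicate were not compared because they lie on another list's scale. Leaving out 1 replicate by taking the other's own list gave between 1 and 3 promoters (main 4), 2 and 4 of the 9 genes (main 6), 0 and 3 other chaperone genes (main 3) and 0.305% to 0.791% of protein-coding genes (main 1.44%); the low end of each is replicate 2's list. A window of 250 bp left 2 promoters and 0.706% of genes, losing dnj-13 and hsp-90. A window of 1000 bp gave 7 other chaperone genes and 2.3% of genes. The share of genes was 0.635% with the 50% of peaks of highest signal and 1.64% with any overlap of the peak. These follow from fewer peaks or a different width. The median distance of the summit from a start, 205 bp, was 188 to 197.5 bp in the replicates' ranked lists. No paired analysis was possible because the samples form 1 group. Read depth is unknown, so what it limits could not be given.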

Other observations

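The 3-unit heat shock element was found at 18 conservative summits, and the F44E5.4/F44E5.5 and hsp-16.2/hsp-16.41 peaks account for 2 of them. For 11 of the 18 no gene start of any kind lay within 500 bp. All 11 held 8 or more overlapping matches, up to 12, within 50 bp of the summit. A pair of summits at pck-2 also held 8 or more, which makes 13 of the 18. The 5 with 4 or fewer matches were those at F44E5.4/F44E5.5 with 3, Y41E3.460 with 4, and hsp-16.2/hsp-16.41, WBGene00010733 and syx-18 with 1 each. The signals of the 18 ran from 60.7 at syx-18 to 198.3 at a summit with no start nearby, 8th in the list and directly above F44E5.4/F44E5.5.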
